A study of Mus musculus with 58 samples.

Results

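Heat shock chaperone genes were followed across the microglia of mice lacking Sgsh and of wild-type (WT) mice. The 10 members, Hspa1a, Hspa1b, Hspa8, Hsp90aa1, Hsp90ab1, Dnajb1, Dnaja1, Hsph1, Hspb1 and Hspe1, were taken by symbol from 3 tables of raw read counts. All 10 were among the 24940 genes of the age table and all 10 were in the SgshKO oligonucleotide table, while 9 were in the WT oligonucleotide table, which does not list Hspb1. Every member listed passed the filter on low counts.

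The age table places the members on build mm10. The HSP70 genes are Hspa1a at chr17:34969359-34972156 and Hspa1b at chr17:34956429-34959238, both on the minus strand, and Hspa8 at chr9:40801273-40805199 on the plus strand. The HSP90 genes are Hsp90aa1 at chr12:110691036-110696395 and Hsp90ab1 at chr17:45567778-45573261, both on the minus strand. The J-domain genes are Dnajb1 at chr8:83608175-83612653 and Dnaja1 at chr4:40722922-40734965, both on the plus strand. Hsph1 is at chr5:149616845-149636315 on the minus strand, and Hspb1 at chr5:135887919-135889563 and Hspe1 at chr1:55088148-55091317 are on the plus strand. Each listed member has 1 count per library, not split by exon or transcript.

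Sgsh encodes the lysosomal enzyme sulfamidase, and SgshKO mice model the lysosomal storage disease mucopolysaccharidosis type IIIA. Polyadenylated RNA was sequenced from microglia, the resident macrophages of the brain, sorted from the forebrain of C57BL/6 mice by CD11b, low CD45 and CX3CR1. The age table held 22 libraries: 3 WT and 4 SgshKO at 3 weeks, 2 WT and 2 SgshKO at 4 months, and 4 WT and 7 SgshKO at 8 months. The WT oligonucleotide table held 20 libraries, 4 for each of 5 treatments. Those treatments were the vehicle PBS, a non-targeting control antisense oligonucleotide (ntc ASO), and an ASO against Mitf, Tfeb or Tfe3, which encode related transcription factors of lysosomal genes. The SgshKO oligonucleotide table held 16 libraries, 8 with ntc ASO and 8 with Mitf and Tfe3 ASOs together. ASOs were given as a single injection into a cerebral ventricle, and cells were taken 14 days later; the age of those mice is not given in the sources used here. The germline knockout affects every cell of the animal, and an ASO in the ventricle reaches cells other than microglia, so neither acts on microglia alone. The labels do not say that the replicates came from separate mice, so each p-value measures only the spread between these samples, which may be technical.

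Heat shock proteins bind unfolded protein and help it fold or pass it on for degradation. HSP70 chaperones (Hspa genes) work in cycles driven by J-domain partners (Dnaj genes) and by HSP110 exchange factors such as Hsph1, and HSP90 chaperones take over late-folding clients. On heat or other protein stress the factor HSF1 binds repeats of the letters GAA and TTC upstream of these genes, and the inducible HSP70 genes Hspa1a and Hspa1b rise from a low base. Hspb1 is a small, ATP-independent holding chaperone, and Hspe1 is the lid of the mitochondrial chaperonin. These genes also respond to tissue dissociation, a known feature of sorted microglia.

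The stretches upstream of Hspa1a and Hspa1b are shown because the counts of this gene pair stood apart in ratio between genotypes at 8 months. Those of Hspb1 and Hspe1 are shown because Hspb1 differed by genotype and Hspe1 did not, although both hold the repeat. Each run is the 150 bases before the annotated RefSeq start in mouse build GRCm38.p6, read 5′ to 3′ on the gene's strand, and capitals mark GAANNTTC or TTCNNGAA. Hspa1a is on the minus strand at chr17:34972157-34972306, Hspa1b on the minus strand at chr17:34959239-34959388, Hspb1 on the plus strand at chr5:135887769-135887918 and Hspe1 on the plus strand at chr1:55087998-55088147.
Hspa1a: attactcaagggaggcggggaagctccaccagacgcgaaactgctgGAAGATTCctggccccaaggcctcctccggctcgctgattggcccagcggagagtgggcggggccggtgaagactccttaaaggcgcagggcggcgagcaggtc
Hspa1b: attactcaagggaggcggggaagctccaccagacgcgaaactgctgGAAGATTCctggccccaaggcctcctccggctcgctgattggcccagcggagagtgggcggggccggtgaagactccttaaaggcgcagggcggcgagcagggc
Hspb1: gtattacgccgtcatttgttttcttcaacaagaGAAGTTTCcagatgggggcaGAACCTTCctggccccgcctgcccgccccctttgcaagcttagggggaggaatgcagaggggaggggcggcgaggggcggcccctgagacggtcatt
Hspe1: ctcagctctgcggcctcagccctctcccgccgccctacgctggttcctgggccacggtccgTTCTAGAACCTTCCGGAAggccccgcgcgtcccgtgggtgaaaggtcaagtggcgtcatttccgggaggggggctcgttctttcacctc

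Hspa1a and Hspa1b are neighbouring copies, and 149 of the 150 bases shown were the same (99.3%). The exception was T149G, counted from 1 at the 5′ end of the shown stretch, with the Hspa1a base first. Both held GAAGATTC starting 104 bases before the start. Hspb1 held 2 such matches and Hspe1 held 3 that overlap one another. Over 250 bases before the start, the 2 motifs GAANNTTC and TTCNNGAA, each its own reverse complement, were searched in 32851 RefSeq windows, and 12.8% held at least 1 of them. That share is per window. The table held 11 windows for 7 of the 10 members, 1 to 3 per gene, and 6 of the 7 genes held a match in at least 1 window. Neither of the 2 windows of Dnajb1 held one, which says only that those letters were not there. The E-box letters CACGTG were in 6.02% of all windows and in 1 window of Hsph1.

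The copies also limit the counts. Of the 50-base windows of the Hspa1a transcript, 58.8% occurred unchanged in Hspa1b, and 62.3% of those of Hspa1b occurred in Hspa1a, so reads from one can be placed on the other. How the authors treated such reads is not given in the sources used here, and values of the pair are uncertain for that reason; the pair is also given below as 1 summed gene.

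Depth, as total counts of a library, was 8191508 to 27106584 in the age table, 14372015 to 30378870 in the WT oligonucleotide table and 12517838 to 30431437 in the SgshKO oligonucleotide table. CPM below are raw counts scaled to a common library size with TMM factors (edgeR), and they are not comparable between tables. Sgsh averaged 44.4 CPM in WT and 26.6 in SgshKO libraries at 8 months, a log2 difference of -0.74 ± 0.16 (standard error, SE; adjusted p = 0.000583, edgeR), and at 3 weeks (adjusted p = 0.434) and 4 months (adjusted p = 0.334) it did not pass the test. Whether the disrupted stretch of Sgsh is among the counted reads was not tested. ASOs lowered their targets: Mitf averaged 43.7 CPM with ntc ASO and 1.58 with Mitf ASO in WT libraries, Tfeb 54.9 and 5.80 with its own ASO, and Tfe3 198 and 38.1. All 12 microglia markers were listed in the age table and summed to 32432 to 60341 CPM per library, lower in SgshKO than in WT libraries at each age without overlap. The labels give no sex, but the age libraries fell into 12 with a summed Y-linked level (Ddx3y, Eif2s3y, Kdm5d, Uty) of at most 1.06 CPM and 10 with at least 190.0 CPM. All 7 libraries of 3 weeks were low and all 4 WT libraries of 8 months were high, so in WT the step from 3 weeks to 8 months and the Y-linked split cannot be told apart. At 8 months 4 of 7 SgshKO libraries were high. In sorted bulk samples, fewer cells of a type and less RNA per cell cannot be told apart either.

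Per length of transcript, on the authors' deposited TPM scale, the constitutive cytosolic genes led. Hsp90ab1, the constitutive cytosolic HSP90, had the highest median of the members in all 6 age groups, between 397 and 670 TPM. Hspa8, the constitutive HSP70, came next in 5 of the 6 groups, with a median of 158 TPM in SgshKO libraries at 8 months. The exception was WT at 4 months, where the medians of Hspa1b (464 TPM) and Hspa1a (299 TPM) stood above that of Hspa8 (269 TPM), with the range of Hspa1a (231 to 366) overlapping that of Hspa8 (225 to 313). Hspb1 was last in 5 of 6 groups, with a median of 0.804 TPM in SgshKO libraries at 8 months, and stood above Hspe1 and Dnaja1 in WT at 4 months at 30.3 TPM. Of the 9 pairs of neighbours in the order, 5 overlapped in range at 3 weeks in either genotype, 5 in WT and 3 in SgshKO at 4 months, and 8 in WT and 6 in SgshKO at 8 months. Hsp90ab1 stood apart from Hspa8 in each group where they were neighbours.

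Over the age groups the CPM levels of the inducible HSP70 pair ran wider than those of Hspa8, Hsp90ab1, Dnaja1, Hsph1 and Hspe1. Hspa8 had its lowest library, at 152 CPM, among SgshKO libraries of 8 months and its highest, at 418 CPM, among WT libraries of 4 months. Hsp90ab1 ran from 487 to 1276 CPM, the ends both in WT, at 8 and 4 months. Dnaja1, which also serves protein import into mitochondria, ran from 15.9 CPM in SgshKO at 8 months to 72.0 in SgshKO at 4 months. Hsph1 ran from 17.6 CPM in WT at 3 weeks to 105 in WT at 4 months. Hspe1 ran from 5.92 CPM in WT at 3 weeks to 21.7 in SgshKO at 8 months. Hspa1a, by contrast, ran from 4.50 to 653 CPM and Hspa1b from 4.84 to 1002. Hspb1 also ran wide, from 0 CPM in SgshKO at 8 months to 25.4 in WT at 4 months. Dnajb1 ran from 57.0 CPM in SgshKO at 8 months to 355 in WT at 4 months. Hsp90aa1 ran from 27.3 CPM in SgshKO at 8 months to 115 in SgshKO at 4 months.

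**Figure D1:**
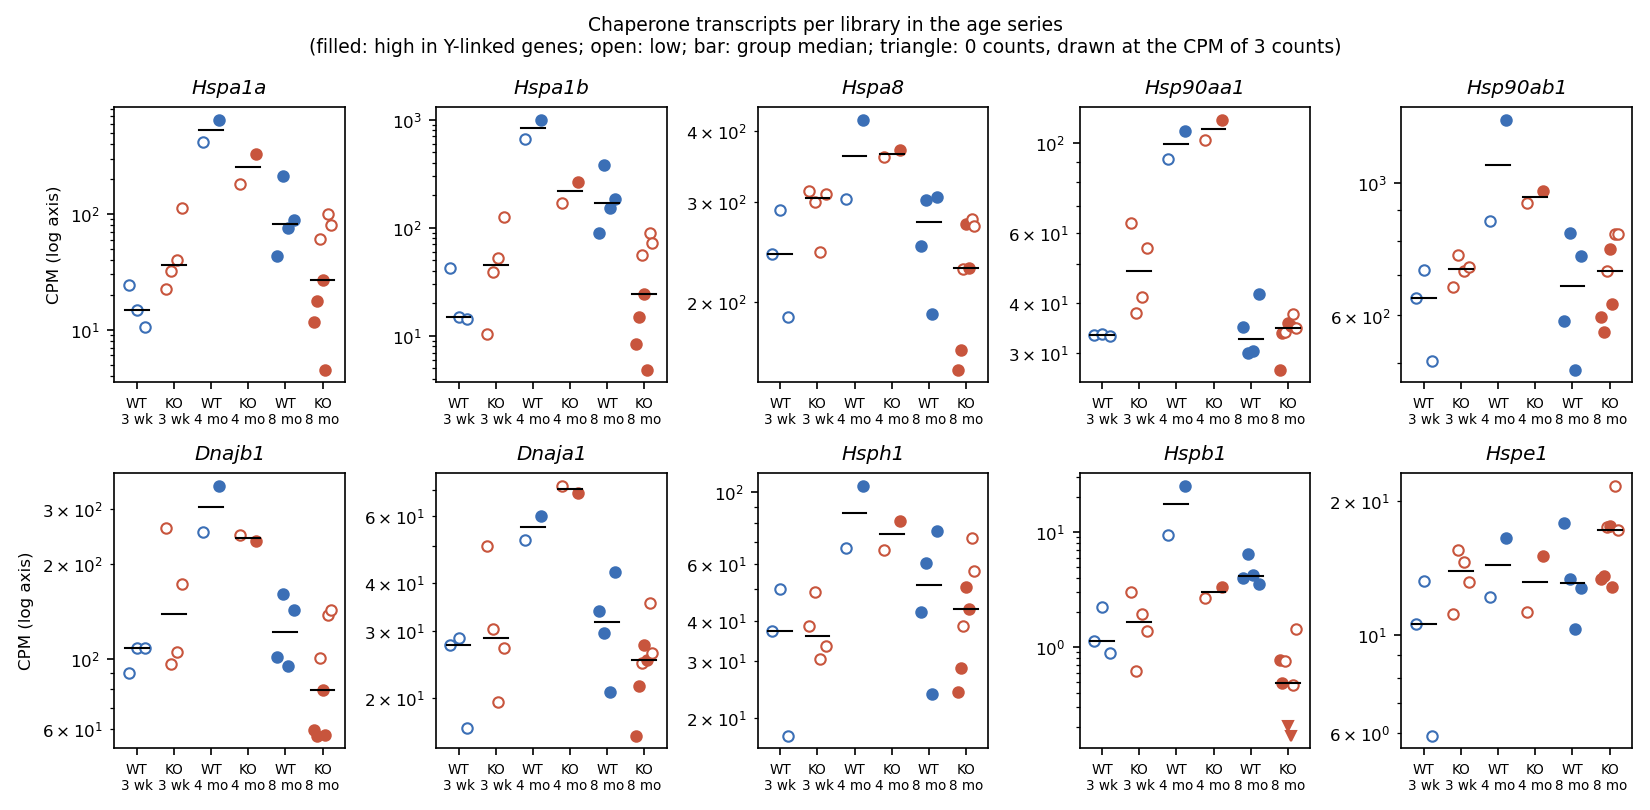
Level of each chaperone in CPM on a log axis in the 22 age libraries, by genotype (WT blue, SgshKO red) and age; each point is 1 library, filled where Y-linked genes were high, bars are group medians and triangles mark 0 counts. Hspa1a, Hspa1b and Hspb1 are highest in the WT libraries of 4 months, and Hspb1 has 0 counts in 2 SgshKO libraries of 8 months.

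At 8 months, SgshKO microglia held less Hspb1 and less Hspa1b RNA than WT microglia. Hspb1 was 8.17-fold lower and Hspa1b 5.24-fold lower, and the other 8 members did not pass the test. Called here and below means an adjusted p under 0.05 from edgeR's quasi-likelihood test, with Benjamini-Hochberg adjustment over all genes tested. In this comparison 18.9% of the 14309 genes tested were called lower and 21.6% higher, so 2 of 10 members lower and 0 higher is close to the background on the lower side.

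Hspb1, the small holding chaperone, was at 4.02, 6.45, 4.20 and 3.54 CPM in the 4 WT libraries of 8 months. In the 7 SgshKO libraries its lowest level was 0 CPM, its median 0.485 and its highest 1.45 CPM, so the groups did not overlap. Replicates 4 and 5 had 0 counts, where 3 counts would have been 0.207 and 0.169 CPM. The log2 difference was -3.03 ± 0.56 (SE, adjusted p = 0.000102).

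Hspa1b was at 89.0, 383, 152 and 183 CPM in the WT libraries of 8 months. The SgshKO libraries ran from 4.84 through a median of 24.4 to 90.2 CPM, and the groups met only at the ends, the highest SgshKO library lying just above the lowest WT library. The log2 difference was -2.39 ± 0.59 (SE, adjusted p = 0.00202). Its copy Hspa1a was at 43.4, 211, 75.7 and 88.6 CPM in WT and from 4.50 through 26.6 to 99.8 CPM in SgshKO libraries. For Hspa1a the groups overlapped more and the difference of -1.29 ± 0.55 did not pass (adjusted p = 0.0656). Counted as 1 gene, the pair differed by -1.91 ± 0.57 (adjusted p = 0.00923).

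The other classes stood closer. Dnajb1, the J-domain partner best known to pair with HSP70 under stress, was at 101, 161, 95.0 and 142 CPM in WT and ran from 57.0 through 79.4 to 143 in SgshKO libraries, with overlap and a log2 difference of -0.47 (adjusted p = 0.159). The constitutive genes Hspa8 and Hsp90ab1 differed by -0.20 and 0.08, and Hsp90aa1, the stress-inducible HSP90, by -0.01. Dnaja1, another J-domain partner, differed by -0.33, the exchange factor Hsph1 by -0.17 and the mitochondrial Hspe1 by 0.26. Of these 7, no adjusted p was below 0.159, and 2 of all 10 members had a positive difference.

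The SgshKO libraries of 8 months also divided by the Y-linked split in Hspa1a, Hspa1b and Dnajb1. Hspa1a was between 4.50 and 26.6 CPM in the 4 libraries high in Y-linked genes and between 60.8 and 99.8 in the 3 low ones. Hspa1b lay between 4.84 and 24.4 CPM against 56.4 and 90.2, and Dnajb1 between 57.0 and 79.4 against 100.4 and 143, so neither overlapped. The ranges of all other members did overlap, with Hspa8 between 152 and 275 CPM against 229 and 280. The share of all genes that lay apart in this split was not counted. Over all 22 age libraries, a term for the split beside group called 0.0559% of the 14309 genes and 0 of 10 members. The lowest adjusted p of a member for that term was 0.827, for Dnajb1. Among the 8 libraries high in Y-linked genes alone, 4 SgshKO against 4 WT, 17.1% of genes were called lower and 4 members were: Hspa1b (-3.98), Hspb1 (-3.71), Hspa1a (-2.83) and Dnajb1 (-0.99). These differences were larger for all 4 than over all libraries. All WT libraries of 8 months were high, so this fit left out only the 3 low SgshKO libraries. Those held more Hspa1a, Hspa1b and Dnajb1, so a larger difference for these genes follows from the split and is no separate result.

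Markers of neutrophils and monocytes were higher in the 8-month SgshKO libraries. The summed level of 12 neutrophil and monocyte markers lay between 11.4 and 13.6 CPM in the WT libraries and between 444 and 5883 CPM in the SgshKO libraries. Elane and Retnlg, both neutrophil genes, were at 0 counts in all 4 WT libraries. Microglia markers summed to 43807 to 52902 CPM in WT and 35196 to 39051 in SgshKO libraries, with 9 of 12 called lower and 2 higher. Of the tested border macrophage markers 5 of 7 were called higher, of oligodendrocyte markers 4 of 7, both with 0 lower. Astrocyte markers were 4 higher and 1 lower of 9, and endothelial and mural markers 4 higher and 3 lower of 8. The part of these cells in the chaperone differences was not tested. Of the 25 immediate early genes, which respond to dissociation, 4 were called higher and 5 lower in SgshKO, and their summed level lay between 15120 and 17658 CPM in WT and between 8481 and 13456 in SgshKO libraries. The part of dissociation in these differences was not tested.

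Of the 82 other chaperone pathway genes tested at 8 months, 22 were called higher and 10 lower in SgshKO libraries. Among those higher were Hsf4, a heat shock factor (log2 difference 3.46), Sdf2l1, an endoplasmic reticulum co-chaperone (1.03), Bag1, an HSP70 exchange factor (0.78), and Hspa12a, a divergent HSP70 (1.67). Among those lower were Fkbp5, an HSP90 co-chaperone that answers to glucocorticoids (-0.85), and Hsf1 itself (-0.28). The members' 0 higher and 2 lower thus stand beside these counts, read against 21.6% and 18.9% of all genes.

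**Figure D2:**
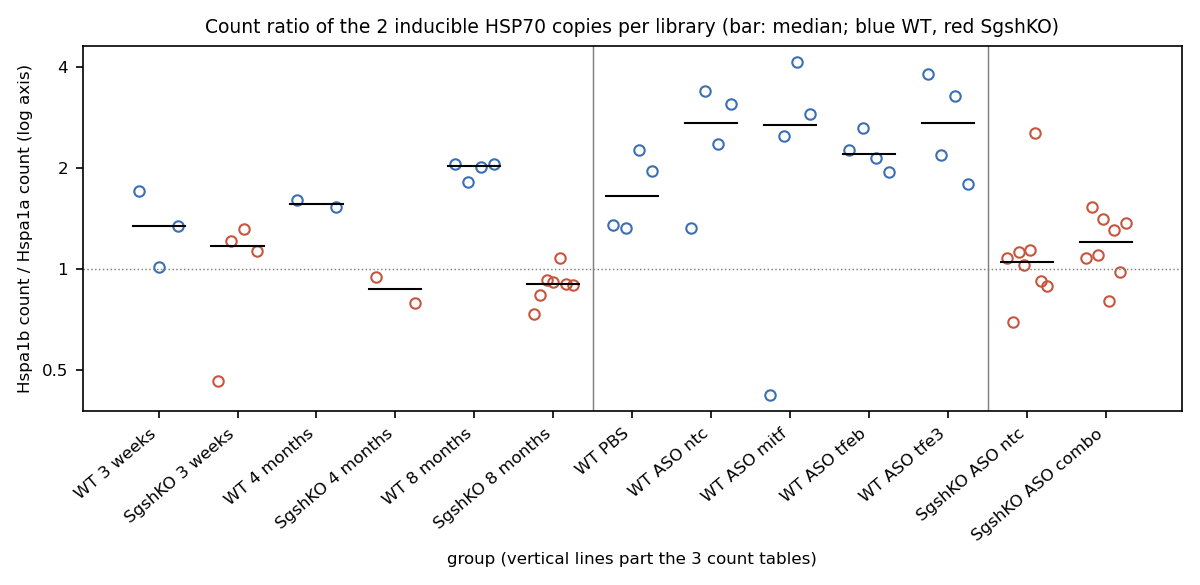
Ratio of Hspa1b to Hspa1a raw counts in each of the 58 libraries on a log axis, by group, with bars at medians and vertical lines between the 3 tables. At 8 months the 4 WT libraries lie between 1.82 and 2.06 and the 7 SgshKO libraries between 0.732 and 1.08.

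The pair also stood apart in proportion. The ratio of Hspa1b to Hspa1a counts was noticed after the values were seen. It is therefore given as a description, and a permutation test run on it afterwards is not used here. The ratio was 1.82 to 2.06 in the 4 WT libraries of 8 months (median 2.03) and 0.732 to 1.08 in the 7 SgshKO libraries (median 0.904). These groups did not overlap, and the 4 SgshKO libraries high in Y-linked genes also lay between 0.732 and 1.08. At 4 months the WT ratios were 1.53 and 1.60 and the SgshKO ratios 0.794 and 0.946. At 3 weeks the ranges overlapped, 1.02 to 1.71 in WT and 0.463 to 1.31 in SgshKO. Because reads of the copies can be swapped, a ratio here is one of assigned reads.

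At 3 weeks 1 member, Hsp90aa1, was called higher in SgshKO microglia, where 5.31% of all genes were called higher. This stress-inducible HSP90 gene was at 33.4, 33.5 and 33.1 CPM in WT and at 63.3, 37.7, 41.4 and 54.8 in SgshKO libraries, without overlap, a difference of 0.57 ± 0.15 (SE, adjusted p = 0.015). All 10 differences were positive, with a median of 0.43 on the log2 scale, while the median of all genes was -0.02. Hspa1a had the largest estimate, at 24.6, 14.8 and 10.6 CPM in WT and 22.5, 32.2, 39.8 and 112 in SgshKO libraries, with overlap and a difference of 1.63 (adjusted p = 0.231). SgshKO replicate 1 stood high for several members, with Dnajb1 at 261 CPM against 96.6 to 172 in the other 3. It held the group's lowest Hspa1a and Hspa1b, at 22.5 and 10.4 CPM. Its immediate early genes summed to 34756 CPM, where the group's median was 14302. Of the 25 immediate early genes 7 were called higher and 0 lower in SgshKO at 3 weeks, with a median difference of 0.83. The part of dissociation was not tested. The Hsp90aa1 call was lost without SgshKO replicate 1 or 4 or any 1 of the 3 WT libraries, with adjusted p from 0.0512 to 0.0714. Of the 82 other chaperone genes, 2 were called higher, among them Dnajc5, a J-domain protein of vesicles, at 0.32 and Canx, an endoplasmic reticulum lectin chaperone, at 0.39, and 0 lower.

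At 4 months 1 member, Hspb1, was called lower in SgshKO microglia, where 9.26% of all genes were called lower and 10.3% higher. Hspb1 was at 9.46 and 25.4 CPM in WT and 2.69 and 3.35 in SgshKO libraries, without overlap, a 5.76-fold difference (log2 -2.53 ± 0.89, adjusted p = 0.0466). Without WT replicate 2 it was -1.62 (adjusted p = 0.434), and the call was also lost without WT replicate 1 (adjusted p = 0.0518), SgshKO replicate 1 (0.159) or SgshKO replicate 2 (0.148). In all 13 of 32 alternatives lost the call, among them leaving out any 1 of 8 libraries of other ages (adjusted p from 0.0515 to 0.0562) and TPM with a pseudocount of 0.1 (adjusted p = 0.136). Hspa1b was at 664 and 1002 CPM in WT and 170 and 263 in SgshKO libraries, also apart, but its difference of -1.94 did not pass (adjusted p = 0.178). Hspa1a had the same order, at 415 and 653 CPM against 180 and 332, and did not pass either (adjusted p = 0.453). Dnajb1 was also lower without overlap, at 253 and 355 CPM in WT against 247 and 237 (adjusted p = 0.637). Dnaja1 lay apart the other way, at 51.9 and 59.9 CPM in WT against 72.0 and 68.9 in SgshKO libraries (adjusted p = 0.559). The share of all genes that lay apart with 2 libraries per group was not counted. Of the other pathway genes 6 were called higher, with Hspa4l, an HSP110, at 1.62, and 2 lower. The neutrophil and monocyte markers summed to 3034 and 14922 CPM in the 2 SgshKO libraries, and 8 of 12 microglia markers were called lower; their part was not tested.

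The difference between genotypes was itself compared between ages. From 3 weeks to 8 months it moved by -3.65 for Hspa1b (adjusted p = 0.0212) and by -3.32 for Hspb1 (adjusted p = 0.0206). For Hspa1b it was 1.26 at 3 weeks and -2.39 at 8 months, and for Hspb1 0.29 and -3.03. Thus 2 of 10 members were called lower and 0 higher, against 3.26% of genes called lower and 5.98% higher. For Hspa1a it moved by -2.93 and for Dnajb1 by -1.10 without passing the test. Hspa1b lost its call when WT replicate 2 or 3 or SgshKO replicate 4 of 3 weeks, or WT replicate 2 of 8 months, was left out, and Hspb1 lost its call when replicate 1 of either genotype or WT replicate 3 of 3 weeks was left out. From 3 weeks to 4 months and from 4 to 8 months 0 of 10 members were called, against 2.52% and 0.391% of genes called in either direction. At an unadjusted p under 0.05 there were 3 and 0 members, where 2312 and 1641 of the 14309 genes were, and these contrasts share libraries.

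**Figure D3:**
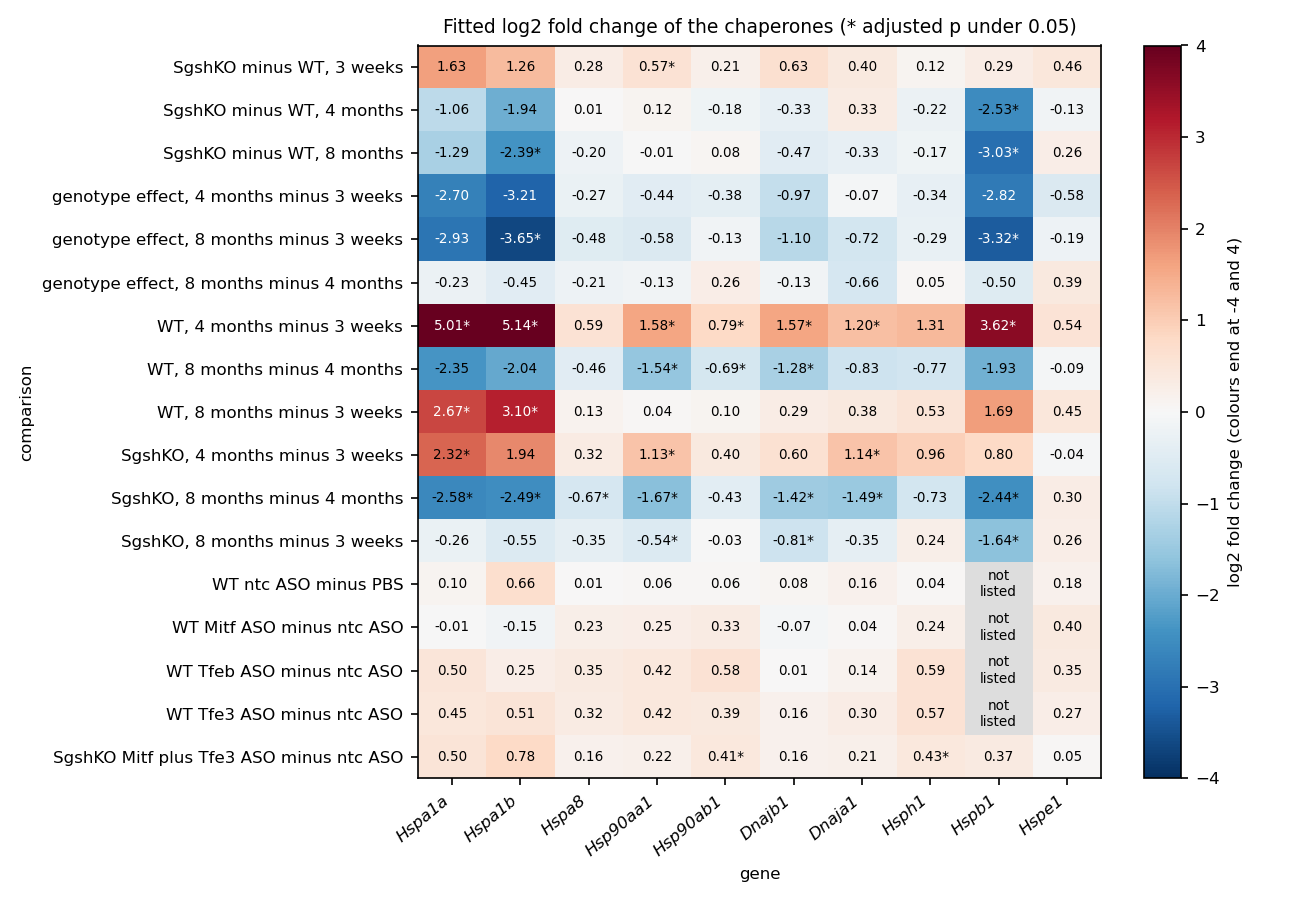
Log2 difference of each chaperone (colour) in each comparison, with an asterisk where the adjusted p was under 0.05. The highest values are 5.14 for Hspa1b and 5.01 for Hspa1a from 3 weeks to 4 months in WT, and the lowest are -3.65 for Hspa1b and -3.32 for Hspb1 in the change of the genotype difference from 3 weeks to 8 months.

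In WT microglia, 7 of 10 members were called higher at 4 months than at 3 weeks, where 2.61% of all genes were called higher. Hspa1a went from 10.6 to 24.6 CPM at 3 weeks to 415 and 653 at 4 months, and Hspa1b from 14.3 to 42.0 to 664 and 1002 CPM. Neither overlapped, with differences of 5.01 ± 0.90 (adjusted p = 0.00128) and 5.14 ± 0.95 (adjusted p = 0.00166). Hsp90aa1 rose 2.99-fold (log2 1.58, adjusted p = 5.61e-06), Hspb1 12.3-fold (adjusted p = 0.00709) and Dnajb1 2.97-fold (adjusted p = 0.0134). Dnaja1 rose by 1.20 and Hsp90ab1 by 0.79 on the log2 scale, while Hspa8, Hsph1 and Hspe1 did not pass. With 2 libraries of 4 months, WT replicate 2 decided several calls: without it Hspb1 was at 2.73 (adjusted p = 0.237), Hsp90ab1 at 0.48 (adjusted p = 0.443) Dnajb1 had an adjusted p of 0.212 and Dnaja1 of 0.231. Leaving out WT 4-month replicate 1 ended the call of Dnaja1, WT 3-week replicate 1 that of Dnajb1, and WT 3-week replicate 3 those of Dnaja1 and Hsp90ab1. WT 4-month replicate 2 was high in Y-linked genes (277 CPM) and replicate 1 low (1.06 CPM), and all WT libraries of 3 weeks were low. Immediate early genes moved alongside, with 15 of 25 called higher. Their sum was 27052 and 34594 CPM at 4 months against 9645 to 14457 at 3 weeks. The part of these immediate early genes in the chaperone values was not tested. In WT libraries 7 other pathway genes were higher, among them Hspa5, the endoplasmic reticulum HSP70 (1.53), Dnajb4 (1.70) and Fkbp5 (1.72), and 0 lower.

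From 4 to 8 months in WT microglia 3 members were called lower, where 3.59% of genes were called lower and 2.18% higher. Hsp90aa1 fell by 1.54 on the log2 scale (adjusted p = 3.48e-06), from 91.3 and 107.6 CPM to 30.1 to 42.2. Dnajb1 fell by 1.28 (adjusted p = 0.0289) and Hsp90ab1 by 0.69 (adjusted p = 0.0249), while Hspa1a (-2.35) and Hspa1b (-2.04) did not pass. Without WT 4-month replicate 2, Hsp90ab1 was at -0.37 (adjusted p = 0.508), and Dnajb1 had an adjusted p of 0.299. Each of WT 8-month replicates 1 and 3 also ended both of these calls, and WT 4-month replicate 1, or a term for the Y-linked split (adjusted p = 0.0609), that of Dnajb1. Of the other pathway genes 1 was called higher and 9 lower, and immediate early genes 0 higher and 11 lower. Against 3 weeks, Hspa1a (2.67, adjusted p = 0.0338) and Hspa1b (3.10, adjusted p = 0.0203) were still higher at 8 months, where 3.02% of genes were called higher and 4.63% lower; this step coincides with the Y-linked split. Both calls were lost without WT 3-week replicate 2 or 3 or WT 8-month replicate 2, and that of Hspa1a also without WT 3-week replicate 1. Of the other pathway genes 4 were called higher, with Fkbp5 at 3.12, and 1 lower.

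In SgshKO microglia Hsp90aa1, Dnaja1 and Hspa1a rose from 3 weeks to 4 months and fell from 4 to 8 months, while Hspe1 passed the test in neither step. From 3 weeks to 4 months 17.6% of genes were called higher and 15.2% lower, and 3 members were called higher: Hsp90aa1 (1.13, adjusted p = 1.05e-05), Dnaja1 (1.14, adjusted p = 0.00406) and Hspa1a (2.32, adjusted p = 0.0199). Hspa1a went from 22.5 to 112 CPM to 180 and 332, and without SgshKO 4-month replicate 2 it was at 1.75 (adjusted p = 0.197), and its call was also lost without SgshKO 3-week replicate 1 or 2. In this step 11 of 12 neutrophil and monocyte markers were called higher (summing to 7.75 to 36.0 CPM at 3 weeks and 3034 and 14922 at 4 months), 10 of 12 microglia markers were called lower, and 5 of 25 immediate early genes were called higher and 1 lower. Their part in the members' values was not tested. Of the other pathway genes 29 were called higher and 3 lower, with the small heat shock gene Hspb8 at 5.49 and Cryab at 3.77. From 4 to 8 months 11.0% of genes were called lower and 8.77% higher, and 7 members were called lower. Hspa1a fell by 2.58 (adjusted p = 0.00736), Hspa1b by 2.49 (adjusted p = 0.0136) and Hspb1 by 2.44 (adjusted p = 0.0152). Hsp90aa1 fell by 1.67 (adjusted p = 1.42e-07), from 101.9 and 115 CPM to 27.3 to 37.7, Dnaja1 by 1.49, Dnajb1 by 1.42 and Hspa8 by 0.67. Without SgshKO 4-month replicate 2 the Hspa1a, Hspa1b and Hspb1 calls were lost, with adjusted p of 0.153, 0.167 and 0.156, and Hspa8 lost its call without either SgshKO library of 4 months. SgshKO 4-month replicate 2 was high in Y-linked genes (271 CPM) and replicate 1 low (0.856 CPM). Of the other pathway genes 4 were called higher and 21 lower, with Dnajb4 at -1.71. Immediate early genes were 0 higher and 11 lower in this step, and neutrophil and monocyte markers 1 higher and 7 lower of 12; their part was not tested.

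From 3 weeks to 8 months in SgshKO microglia, 15.1% of genes were called lower and 15.5% higher, and 3 members were called lower. These were Hsp90aa1 (-0.54 ± 0.12, adjusted p = 0.00127), Dnajb1 (-0.81, adjusted p = 0.0179) and Hspb1 (-1.64, adjusted p = 0.0342). Dnajb1 lost its call without SgshKO 3-week replicate 1 (-0.47, adjusted p = 0.194), and Hspb1 without SgshKO 3-week replicate 1 (adjusted p = 0.194) or 3 or SgshKO 8-month replicate 6. Both calls were also lost with a term for the Y-linked split (Dnajb1 -0.56, adjusted p = 0.129; Hspb1 -1.49, adjusted p = 0.106). Without the 8-month libraries high in Y-linked genes, Dnajb1 was at -0.32 (adjusted p = 0.413) and Hspb1 at -1.03 (adjusted p = 0.167). Neutrophil and monocyte markers were 10 higher and 0 lower of 12 in this step, and microglia markers 1 higher and 11 lower of 12. Hspa1a and Hspa1b summed differed by -0.41 (adjusted p = 0.647). Immediate early genes were 0 higher and 9 lower, and the part of these lists was not tested. Of the other pathway genes 17 were higher and 6 lower, with Fkbp5 at 1.53.

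**Figure D4:**
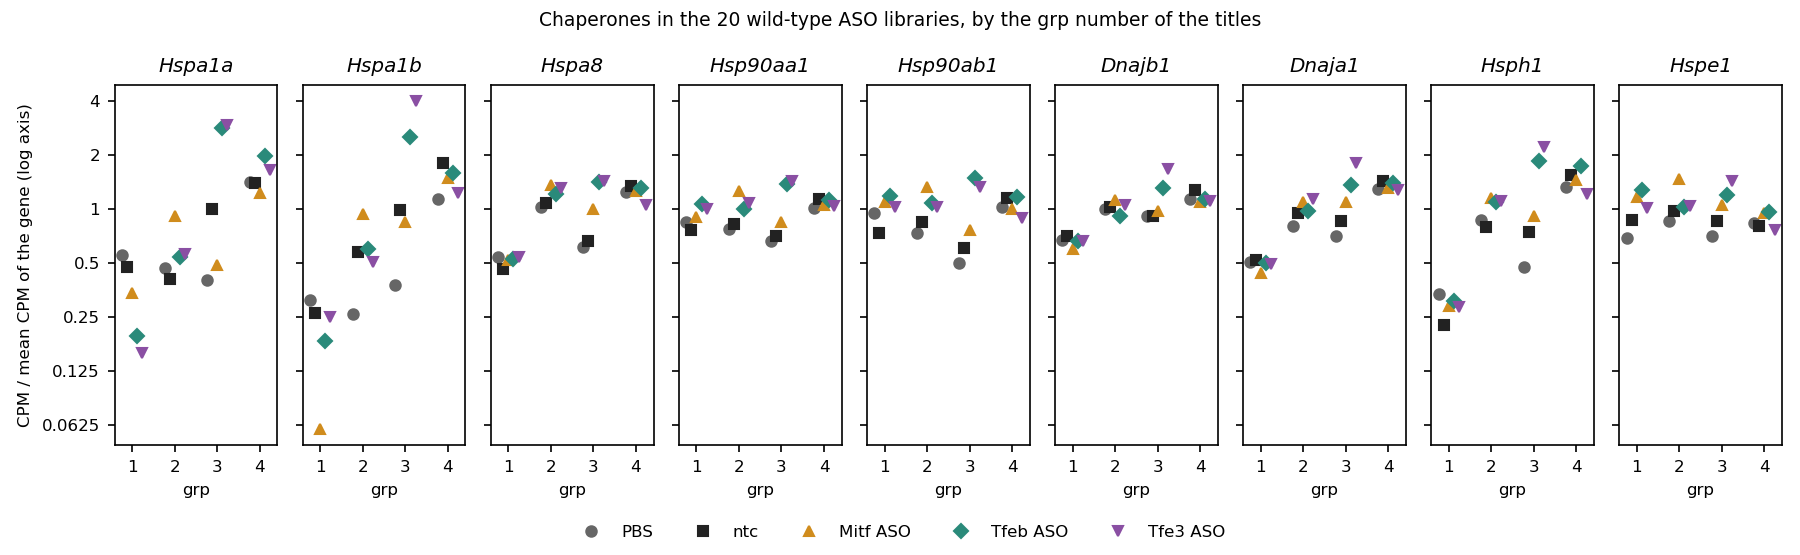
CPM of each listed chaperone divided by that gene's mean over the 20 WT oligonucleotide libraries, on a log axis, by the labelled grp, with a marker for each treatment. Hspa8, Dnajb1, Dnaja1 and Hsph1 are lower in all 5 libraries of grp 1 than in any other library, while Hsp90aa1, Hsp90ab1 and Hspe1 overlap between grp 1 and the rest.

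In WT microglia given ASOs, no member was called in any of the 4 comparisons. The ntc ASO against PBS called 0.0% of 10277 genes (415 at an unadjusted p under 0.05) and 0 of 9 members at either level. Mitf ASO against ntc ASO called 11.0% of genes, Tfeb ASO 0.778% and Tfe3 ASO 2.16%, with 0 of 9 members called each time. At an unadjusted p under 0.05 there were 1, 4 and 1 members respectively, where 2651, 1478 and 1711 of the 10277 genes were. The nearest to a call was Hspe1 with Mitf ASO (0.40 ± 0.14, adjusted p = 0.082). With Tfeb ASO, Hsp90ab1 differed by 0.58 (adjusted p = 0.214), Hsp90aa1 by 0.42 and Hsph1 by 0.59 (adjusted p = 0.346), and with Tfe3 ASO Hsp90aa1 by 0.42 (adjusted p = 0.181) and Hsph1 by 0.57. These 3 comparisons share the ntc libraries. By library, in the order grp 1 to 4, Hspe1 was at 20.6, 23, 20.1 and 18.9 CPM with ntc ASO and at 27.7, 34.8, 24.8 and 22.3 with Mitf ASO. Hspe1 with Mitf ASO was higher in each grp, and the ranges overlapped only at their ends. Hsp90aa1 was at 135, 145, 124 and 201 CPM with ntc ASO and at 188, 175, 242 and 199 with Tfeb ASO, higher in 3 of 4 grp. With Tfe3 ASO it was at 177, 191, 252 and 182 CPM, again higher in 3 of 4. The Mitf comparison called 6 other pathway genes higher and 0 lower, with Bag1 at 0.33, and the Tfe3 comparison called 2 higher, Calr at 0.25 and Canx at 0.17, and 0 lower.

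The WT oligonucleotide libraries varied more by the labelled grp than by treatment for 6 of the members, the HSP70 system. Between grp, 76.3% of the sum of squares of Hspa8 lay, and for Hspa1a, Hspa1b, Dnajb1, Dnaja1 and Hsph1 the share ran from 57.9% to 81.3%. For all genes the median share was 36.8% and the upper quartile 54.3%. In grp 1 Hsph1 lay between 7.47 and 11.2 CPM and in grp 4 between 40.2 and 57.5, and Hspa8 between 766 and 898 against 1751 and 2234. Hspa1b, in every library of grp 1, was between 0.800 and 4.17 CPM and in grp 4 between 15.4 and 24.1, without overlap. For the HSP90 genes and Hspe1 the share between grp was 7.76% to 13.6%, and 40.9% to 51.8% lay between treatments. The median share between treatments for all genes was 21.9%. The grp was a block in the fit, and its meaning is not given in the sources used here.

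In SgshKO microglia given Mitf and Tfe3 ASOs together, 2 of 10 members were called higher than with ntc ASO, where 4.84% of genes were called higher and 4.5% lower. Mitf averaged 72.4 CPM with ntc ASO and 15.3 with the pair of ASOs, and Tfe3 170 and 80.4. Hsp90ab1, in grp 1, was at 431, 417, 445 and 513 CPM with ntc ASO and at 566, 499, 712 and 727 with both ASOs. In grp 2 it was at 566, 600, 539 and 570 CPM against 696, 643, 837 and 714. Its levels overlapped across grp 1 but not across grp 2, and the difference was 0.41 ± 0.08 (SE, adjusted p = 0.00293).

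Hsph1, the HSP110 exchange factor, was at 42.4, 29.0, 36.6 and 40.8 CPM with ntc ASO and 42.5, 48.3, 58.5 and 55.1 with both ASOs in grp 1. In grp 2 it was at 52.5, 47.7, 44.8 and 42.7 CPM against 70.9, 57.4, 64.1 and 53.7, and in each grp every treated library was above every ntc library. The difference was 0.43 ± 0.08 (SE, adjusted p = 0.00491). Within grp 1 alone neither gene passed, with Hsp90ab1 at 0.49 (adjusted p = 0.0636) and Hsph1 at 0.48 (adjusted p = 0.0732). All 10 differences were positive, with a median of 0.29, while the median of all genes was 0.0. Hspa8 (0.16, adjusted p = 0.0579), Dnaja1 (0.21, adjusted p = 0.0812) and Hspa1b (0.78, adjusted p = 0.0862) came next. Hspa1a and Hspa1b were at 1.07 to 8.35 and 1.91 to 11.9 CPM over the 16 libraries. Of 78 other pathway genes tested 5 were called higher, with Stip1, which bridges HSP70 and HSP90, at 0.32, and 2 lower, Hspa13 (-0.25) and Dnajb14 (-0.19). Immediate early genes were 0 higher and 5 lower.

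**Figure D5:**
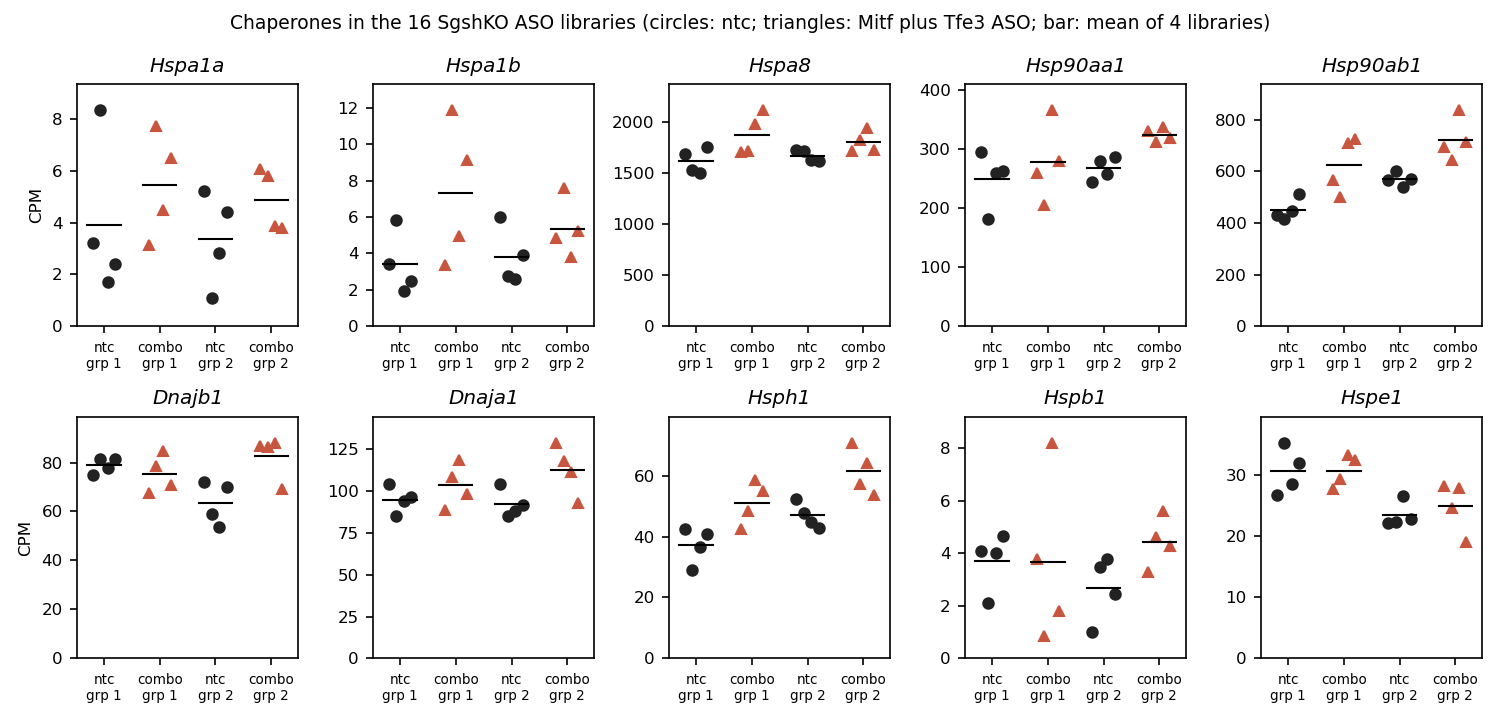
CPM of the 10 chaperones in the 16 SgshKO oligonucleotide libraries by grp, with ntc ASO as circles, Mitf plus Tfe3 ASO as triangles and bars at means of 4 libraries. Hsph1 of the treated libraries lies above ntc in both grp, and Hsp90ab1 lies above ntc in grp 2.

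The members varied together to different degrees between tables, as Pearson's r of log2(CPM + 1) after each group's mean was subtracted. Across the 22 age libraries all 45 pairs of members had a positive correlation, with a median of 0.464. Across the 20 WT oligonucleotide libraries all 36 pairs did, with a median of 0.640, and across the 16 SgshKO oligonucleotide libraries 30 of 45 did, with a median of 0.117 and the lowest, -0.784, between Hspa1b and Hspb1. These libraries share treatments, ages and grp, and the values describe them only. The mean of a grp was not subtracted, so differences between grp remain in the values of the oligonucleotide libraries. Among all other genes, those most like the summed HSP70 pair in the WT oligonucleotide libraries were Bag3 (0.955), an HSP70 co-chaperone, Trim65 (0.937), Akap8l (0.932), Panx1 (0.932) and Sin3a (0.927). For Hspa8 in those 20 libraries they began with Cybc1 (0.956) and Chordc1 (0.951), an HSP90 co-chaperone.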

How the data were processed

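Per the submitters' processing notes, the authors' tools included STAR 2.5.3a, kallisto 0.44.0, HOMER 4.11 and DESeq2 1.36.0 in R 4.2.3 with build mm10, without a stated role for each. The authors deposited raw read counts per gene for all 3 tables, TPM values for the age table, and a normalised, batch-corrected signal for the oligonucleotide tables. Per the labels' protocols, libraries were stranded and single-end, and the RNA kits and instruments named there are not tied to libraries.

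The main test on counts was the quasi-likelihood one of edgeR 4.0.16 under R 4.3.3, after TMM scaling and filterByExpr at a minimum count of 10, with Benjamini-Hochberg adjustment over all genes tested and 1 model per table. Genes tested numbered 14309 in the age table, 10277 in the WT and 10589 in the SgshKO oligonucleotide table. The age model held the 6 groups; the oligonucleotide models also held the labelled grp as a term. In the WT oligonucleotide libraries same-numbered samples share a grp and deviated together (r from 0.0514 to 0.720, 39 of 40 pairs above 0.1). The PBS library of replicate 4 is grp 4 by its title and grp 3 by its column, and grp 4 was used. SE is the log2 difference divided by the square root of F. Deposited TPM (log2 of the value plus 1 or 0.1) and signal were tested with limma 3.58.1 as alternatives, and DESeq2 1.42.0 was another.

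The members, gene lists and tests were chosen with earlier results of these data known. All members are named; from each list the 2 called genes per direction with the largest difference could be named, and some of these are. Scripts were tested on simulated data.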

Additional observations from a re-analysis of the deposited data

Results flagged for a closer look

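Of 95 sets of 4, 7 or 8 libraries (1 member in 1 group) examined for a library far from the rest, 4 held one, and chance alone gives about 1 in 20. Hsp90aa1 was lowest in SgshKO 8-month replicate 1, at 27.3 CPM against 33.8 in the next library. Hspa1a was highest in PBS replicate 4 of the WT oligonucleotide table, at 7.86 CPM against 3.08 in the next, and Hspa1b in the same library, at 15.4 CPM against 5.08; this is the library whose grp differs between its title and its column. Hsp90aa1 was lowest in SgshKO ntc ASO grp 1 replicate 2, at 180.6 CPM against 243.7 in the next.

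The genotype difference changed between 3 weeks and 8 months, by a test of the change itself, for Hspa1b (-3.65) and Hspb1 (-3.32). Their causes were not tested.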

How the results depend on the processing

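No called value of a member changed sign under any alternative run, and at 8 months Hspa1b (-3.98 to -1.88) and Hspb1 (-3.71 to -2.33) kept their calls in 34 of 34 alternatives. In the age libraries replicate numbers are only shared numbers (r from -0.175 to 0.155 over 9 pairs); a replicate block moved the members called from 1 to 0 for SgshKO against WT at 3 weeks, from 2 to 4 at 8 months, from 3 to 5 for WT from 4 to 8 months and from 3 to 5 for SgshKO from 3 weeks to 4 months. Among SgshKO oligonucleotide libraries, 5 of 8 same-numbered pairs were above r = 0.1, with a range of 0.0178 to 0.622.

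Without the filter on low counts the members called became 2 at 3 weeks and 2 at 4 months (from 1 each), 4 at 8 months (from 2), 1 for the change of the genotype difference to 4 months (from 0), 5 for that to 8 months (from 2), 7 for WT from 4 to 8 months (from 3) and 6 for SgshKO to 4 months (from 3). DESeq2 gave 4 for the change to 8 months, 1 for Mitf ASO (from 0) and 5 for the pair of ASOs (from 2), where batch-corrected values gave 4 and grp 1 alone 0. On TPM the 3-week count was 0 with pseudocount 1, with 0.1 and without a filter; the 4-month count was 0 with 0.1; the change to 4 months gave 1 with pseudocount 1; and without a filter the change to 8 months, WT from 4 to 8 months and WT from 3 weeks to 8 months gave 1 each, the last also with 0.1. Fitting only the groups compared gave 3 at 4 months, 5 for WT from 4 to 8 months, 5 for SgshKO to 4 months and 1 for Mitf ASO.

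Alternatives added after seeing the data gave 4 at 8 months for the libraries high in Y-linked genes and 4 with a Y-linked term, 4 for the change to 8 months with that term, and 1 for SgshKO from 3 weeks to 8 months with the term or in the low libraries alone (from 3). Leaving out 1 library gave 0 to 1 members at 3 weeks and at 4 months, 2 to 3 at 8 months, 0 to 4 for the change to 8 months, and 0 to 0 for the other 2 changes. It gave 3 to 8 for WT to 4 months, 1 to 4 for WT from 4 to 8 months, 0 to 2 for WT to 8 months, 2 to 4, 3 to 7 and 1 to 3 for the same SgshKO steps, 0 to 1 for Mitf ASO, 0 for the other WT ASO comparisons and 2 to 4 for the pair of ASOs. Where leaving out a library leaves 1 at 4 months, that library is assumed to vary like the other groups. The causes of these changes were not tested. The groups of 2 at 4 months and the few counts of Hspb1 limit precision, and floors cover counting error only.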

Other observations

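In the age libraries the genes most like the summed HSP70 pair, by Pearson's r of log2(CPM + 1) within groups over 22 libraries, were Rpl4 (0.876), a ribosomal protein gene, Mrpl9 (0.847), a mitochondrial ribosomal protein gene, and Ndufb3 (0.827), a complex I subunit gene. Those most like Hspa8 were Ube2k (0.874), Ccdc117 (0.860) and Tsen54 (0.844). In the 16 SgshKO oligonucleotide libraries they were Il3ra (0.803) and Tmem63a (0.791) for the pair and Bcl7c (0.858) and Ssbp3 (0.796) for Hspa8. The named genes differ between tables, and the values are descriptions.

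The ratio of Hspa1b to Hspa1a counts was above 1 at the median in every ASO group. In SgshKO age libraries its median was 1.17 at 3 weeks, 0.870 at 4 months and 0.904 at 8 months. The ASO medians were 1.65 with PBS, 2.73 with ntc ASO, 2.69 with Mitf ASO, 2.20 with Tfeb ASO and 2.73 with Tfe3 ASO in WT libraries. In SgshKO libraries they were 1.05 with ntc ASO and 1.21 with both ASOs. Single libraries ran from 0.422 to 4.14 with Mitf ASO in WT and from 0.697 to 2.55 with ntc ASO in SgshKO. The WT and SgshKO ratios come from separate tables and were not tested against each other.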
